A study of Mus musculus with 12 samples.

Results

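The enzymes that oxidize fatty acids in mitochondria and peroxisomes were followed in mouse liver as 35 genes, chosen by symbol for their place in carnitine transfer, β-oxidation, α-oxidation or the electron transfer flavoprotein, out of 48795 genes in the table. All 35 passed the filter on low counts, which kept 13812 genes. RNA was read from the livers of 12 female mice in 4 groups of 3. The labels call all of them littermates 4 months of age on normal chow and do not say which mice shared a litter. All carried 1 batch label and had livers labelled normal. The groups were *Nts*+/+ (NTS WT) mice fed ad libitum (mice 254, 257 and 323), *Nts*+/+ mice fasted for 22 h (mice 265, 282 and 322), *Nts*-/- (NTS KO) mice fed ad libitum (mice 277, 303 and 319) and *Nts*-/- mice fasted for 22 h (mice 284, 290 and 295). The knockout is of neurotensin, a gut and brain peptide hormone, and the study's methods give it as whole-body. Values of individual mice are given in that order of mice. The study asked whether loss of neurotensin changes mitochondrial energy metabolism in fed and fasted liver.

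A long-chain fatty acid enters the mitochondrion bound to carnitine, is returned to coenzyme A, and is then shortened in repeated rounds of dehydrogenation, hydration, a further dehydrogenation and thiolytic cleavage. Peroxisomes run a parallel β-oxidation on very long and branched chains and on bile acid precursors, and α-oxidation removes the carbon that blocks phytanic acid. Electrons from the acyl-CoA dehydrogenases pass through the electron transfer flavoprotein to ubiquinone, and in fasted liver the pathway is known to be induced through the fatty acid receptor PPARα and to feed ketone body synthesis.

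The total per mouse ran from 21999647 to 45273069 counts. Libraries labelled *Nts*+/+ all held 0 counts of *Nts*, and those labelled *Nts*-/- held 4 to 46. The reason for these counts was not tested, and every genotype below is that of the label. The hepatocyte markers *Alb*, *Apoa1*, *Ttr*, *Apob* and *Tat* summed to between 103200 and 132800 CPM (counts scaled to library size with TMM factors), with fed and fasted mice overlapping. Most of that sum is *Alb*, and within it fasted mice were all above fed mice for *Apoa1* (log2 fold change 0.86, adjusted p = 0.000784) and *Apob* (0.68, adjusted p = 0.00099) and all below for *Ttr* (−0.76, adjusted p = 0.000395). Of other cell types, 5 Kupffer cell markers summed to 244 to 445 CPM in fed and 195 to 334 CPM in fasted mice, 4 sinusoidal endothelium markers to 120 to 181 CPM and 98.1 to 119 CPM, and 5 stellate cell and fibroblast markers to 193 to 269 CPM and 182 to 205 CPM. The part of these shifts in the fasting results was not tested. The 4 adipocyte markers summed to at most 0.0443 CPM in fed and to 0.0472 to 0.260 CPM in fasted mice, with *Lep* at 0 counts in all 12. The 4 skeletal muscle markers summed to 0.132 to 0.833 CPM with fed and fasted mice overlapping, and *Acta1* and *Myh4* were at 0 counts in all 12. In bulk liver, fewer cells of a type and less RNA per cell cannot be told apart.

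Fasting raised most of the pathway. Averaged over the genotypes, with 6 mice against 6, 25 of the 35 genes rose, 3 fell (*Eci3*, *Hacl1* and *Pecr*) and 7 did not pass (*Crot*, *Acads*, *Echs1*, *Acox2*, *Acox3*, *Scp2* and *Etfa*) at an adjusted p under 0.05, while 16% of all tested genes rose and 16.8% fell. The median log2 fold change of the 35 genes was 0.91, against −0.0071 over all genes tested. In 21 genes every fasted mouse was above every fed mouse (8.05% of all genes), and in *Eci3* every fasted mouse was below (7.83% of all genes). Together the 35 genes made up 13170 to 16970 CPM in the 6 fed mice and 22600 to 26390 CPM in the 6 fasted mice, so the sums did not overlap.

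**Figure D1:**
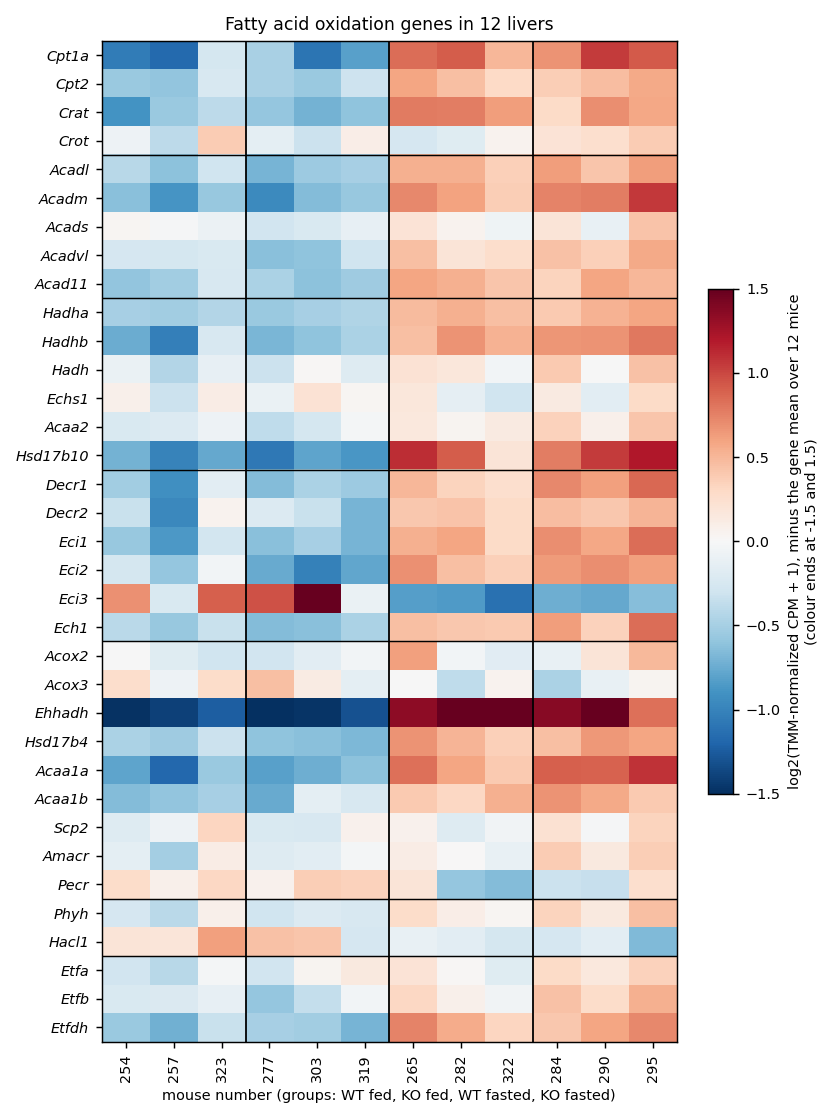
Each row is a gene and each column a mouse, in the order *Nts*+/+ fed, *Nts*-/- fed, *Nts*+/+ fasted and *Nts*-/- fasted, and the colour is log2(TMM-normalized CPM + 1) minus the mean of the gene over the 12 mice. The 6 fasted columns are red in most genes and blue in *Eci3* and *Hacl1*, and black horizontal lines part the roles in the order in which they are described.

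The response was also tested within each genotype label. In livers labelled *Nts*+/+, 20 genes rose and 0 fell, with a median log2 fold change of 0.79, beside 8.91% and 9.19% of all genes. In livers labelled *Nts*-/-, 23 rose and 1 fell, with a median of 0.92, beside 7.7% and 9.14%. All 20 genes that rose in livers labelled *Nts*+/+ were among the 24 that passed in livers labelled *Nts*-/-, and the other 4 were *Acaa2*, *Phyh*, *Etfb* and *Eci3*. In livers labelled *Nts*+/+ the call of *Decr2* was lost without mouse 254, 257, 265 or 282 (adjusted p up to 0.0796) and that of *Acadvl* without mouse 254 (adjusted p = 0.0552). In livers labelled *Nts*-/- the calls of *Acaa2* and *Phyh* were lost without mouse 277, 303, 284 or 295 (adjusted p up to 0.119 and 0.0783). That of *Eci3* was lost without mouse 284, 290 or 295 (adjusted p up to 0.0739). With only the mice of 1 genotype label in edgeR's fit, *Decr2* lost its call under *Nts*+/+ (adjusted p = 0.0586). So did *Acaa2* and *Eci3* under *Nts*-/- (adjusted p = 0.0699 and 0.0806). The direction was shared by 32 of the 35 genes, all but *Crot*, *Echs1* and *Scp2*, which did not pass under either label. For none of the 35 did the difference between the responses pass its test, as set out after the roles. None of the 35 genes fell with a call in livers labelled *Nts*+/+ in edgeR's test. Before adjustment, 3 of them were lower with an edgeR p under 0.05, beside 2228 of all 13812 genes. In the Wald test of DESeq2, 2 of the 35 passed as lower. Over all 13812 genes, 2881 passed in either direction. These were not split by direction, so no share of all genes stands beside the 2.

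**Figure D2:**
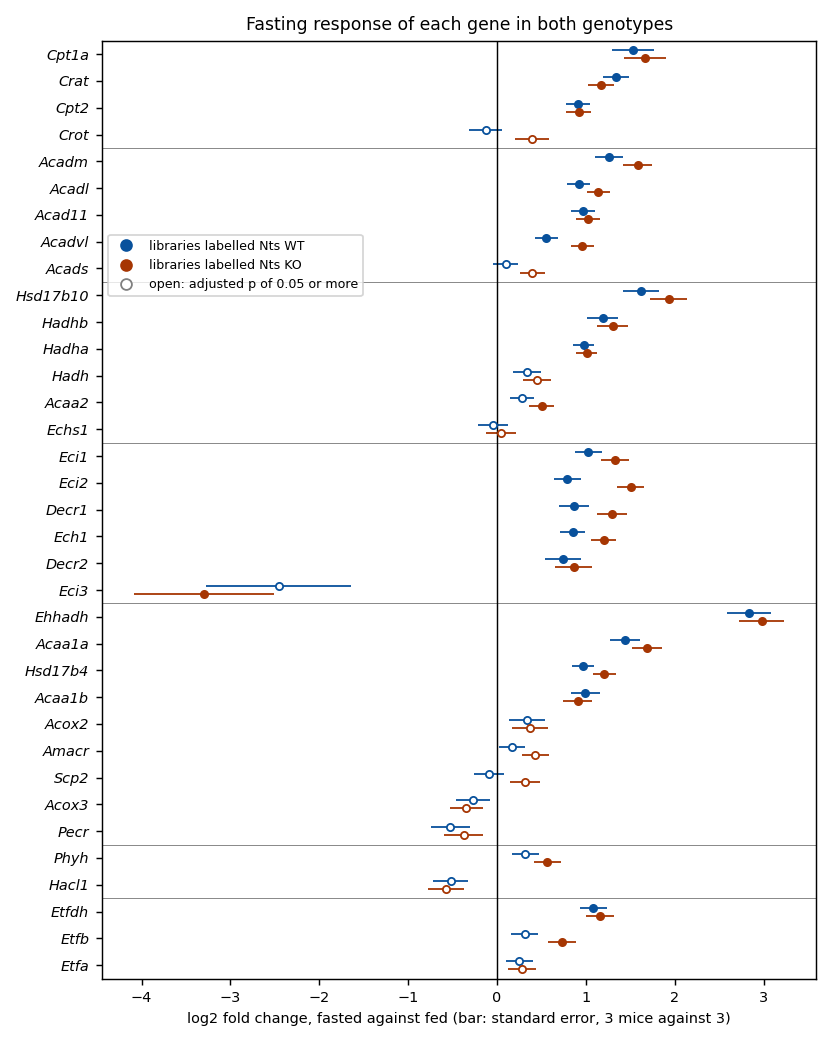
The horizontal axis is the log2 fold change of fasted against fed mice, with its standard error, for livers labelled *Nts*+/+ (blue) and *Nts*-/- (brown), 3 mice against 3, and open points have an adjusted p of 0.05 or more. *Ehhadh* stands at 2.83 and 2.98, and *Eci3* at −2.46 and −3.30.

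Of the 4 genes of carnitine transfer, 3 rose on fasting and 0 fell. *Cpt1a* encodes the enzyme that couples long-chain acyl groups to carnitine at the outer mitochondrial membrane, a controlled entry step. It was at 199 to 372 CPM in fed and 631 to 922 CPM in fasted mice and rose 3.03-fold (log2 fold change 1.60, SE 0.17, adjusted p = 1.52e-05). *Cpt2*, which returns the acyl group to coenzyme A inside the mitochondrion, rose by 0.91 on the log2 scale (SE 0.097), with fed and fasted mice apart. The smallest p among these genes belonged to *Crat*, the carnitine acetyltransferase. *Crat* was at 63.2, 80.4 and 89.6 CPM in *Nts*+/+ fed, 204, 202 and 184 CPM in *Nts*+/+ fasted, 78.5, 72.3 and 77.3 CPM in *Nts*-/- fed and 144, 193 and 178 CPM in *Nts*-/- fasted mice. The lowest fasted mouse, 284, was above the highest fed mouse, and the rise was 2.39-fold (log2 fold change 1.26, SE 0.10, adjusted p = 2.42e-06). *Crot*, which makes medium-chain acylcarnitines in peroxisomes, did not pass. Its levels were 956, 765 and 1313 CPM in *Nts*+/+ fed, 845, 891 and 1041 CPM in *Nts*+/+ fasted, 913, 801 and 1077 CPM in *Nts*-/- fed and 1160, 1198 and 1308 CPM in *Nts*-/- fasted mice. Fed mouse 323 was above all 6 fasted mice, and the averaged log2 fold change was 0.13 (95% interval −0.15 to 0.42, which like all intervals here is not adjusted for the number of genes).

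The acyl-CoA dehydrogenases rose in 4 of 5 cases and fell in 0. Among them *Acadvl*, *Acadl*, *Acadm* and *Acads* are divided by chain length and open each round of mitochondrial β-oxidation. Medium-chain *Acadm* rose most. *Acadm* was at 370, 309 and 385 CPM in *Nts*+/+ fed, 944, 867 and 739 CPM in *Nts*+/+ fasted, 294, 363 and 386 CPM in *Nts*-/- fed and 955, 971 and 1195 CPM in *Nts*-/- fasted mice. All fasted mice were above all fed mice, with mouse 295 highest, and the rise was 2.68-fold (log2 fold change 1.42, SE 0.11, adjusted p = 1.84e-06). Of its transcript windows of 31 bases, 11.7% also occur in *Gm5131*. Long-chain *Acadl* was at 259, 226 and 281 CPM in *Nts*+/+ fed, 501, 501 and 444 CPM in *Nts*+/+ fasted, 213, 238 and 244 CPM in *Nts*-/- fed and 536, 461 and 534 CPM in *Nts*-/- fasted mice. It rose 2.04-fold with no overlap between the feeding states (log2 fold change 1.03, SE 0.092, adjusted p = 4.14e-06). Very-long-chain *Acadvl* showed 472, 470.2 and 480.1 CPM in *Nts*+/+ fed, 769.6, 646 and 675 CPM in *Nts*+/+ fasted, 363, 370.4 and 457 CPM in *Nts*-/- fed and 762, 723 and 833 CPM in *Nts*-/- fasted mice. Fasted mice were again all above fed mice, and the rise was 1.69-fold (log2 fold change 0.76, SE 0.094). *Acad11*, whose product acts on long-chain and 4-hydroxy acyl groups, rose 1.99-fold (log2 fold change 0.99, SE 0.095). Short-chain *Acads* did not pass, at 152 to 188 CPM in fed and 171 to 249 CPM in fasted mice (log2 fold change 0.25, 95% interval 0.034 to 0.46).

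In the remainder of the mitochondrial spiral, 5 of 6 genes rose and 0 fell. *Hadha* and *Hadhb* encode the α and β subunits of the trifunctional protein, which carries the last 3 steps for long chains. *Hadha* was at 325, 319.7 and 337 CPM in *Nts*+/+ fed, 638, 663 and 625 CPM in *Nts*+/+ fasted, 312, 324 and 334 CPM in *Nts*-/- fed and 599.9, 657 and 693 CPM in *Nts*-/- fasted mice. The 6 fed mice lay within 312 to 337 CPM and all fasted mice were above them, for a rise of 1.99-fold (log2 fold change 0.99, SE 0.081, adjusted p = 2.07e-06). *Hadhb* rose 2.37-fold (log2 fold change 1.24, SE 0.12), at 185 to 320.3 CPM in fed and 518 to 658 CPM in fasted mice, and 66.1% of its windows of 31 bases occur in other genes, nearly all of them in the pseudogene *Hadhb-ps*. The 2 genes lie head to head on chromosome 5 in GRCm38, with 85 bases between them in the deposited positions, *Hadha* on the minus strand (30118304 to 30155162) and *Hadhb* on the plus strand (30155248 to 30184593). Their RefSeq promoter windows (GRCm38.p6, 250 bases before to 50 after the start, chr5:30154931-30155230 for *Hadha* and chr5:30155003-30155302 for *Hadhb*) share 228 bases. The RefSeq starts lie 273 bases apart, and that of *Hadha* falls inside the deposited span of the gene. The *Hadhb* window is shown because both subunits rose and the shared stretch, in capitals, lies in both windows, 5′ to 3′ on the plus strand.
Hadhb: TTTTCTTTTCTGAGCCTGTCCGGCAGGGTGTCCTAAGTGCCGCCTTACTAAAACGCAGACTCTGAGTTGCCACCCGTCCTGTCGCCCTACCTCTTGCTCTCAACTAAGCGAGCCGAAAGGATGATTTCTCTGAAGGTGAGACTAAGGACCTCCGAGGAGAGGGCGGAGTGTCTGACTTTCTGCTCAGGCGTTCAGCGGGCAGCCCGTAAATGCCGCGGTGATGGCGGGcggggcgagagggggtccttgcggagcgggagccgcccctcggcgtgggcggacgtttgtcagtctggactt

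*Hsd17b10*, which encodes a mitochondrial 3-hydroxyacyl-CoA dehydrogenase that also works in isoleucine breakdown and in the mitochondrial RNase P, had the largest fold change of the spiral. *Hsd17b10* was at 94.5, 77.2 and 90.9 CPM in *Nts*+/+ fed, 335, 294 and 177 CPM in *Nts*+/+ fasted, 73.7, 89.5 and 84.2 CPM in *Nts*-/- fed and 264, 322 and 358 CPM in *Nts*-/- fasted mice. All fasted mice were above all fed mice, with mouse 322 the lowest fasted mouse, well below the other mice of its group. The rise was 3.42-fold (log2 fold change 1.77, SE 0.15, adjusted p = 2.31e-06). The hydroxyacyl-CoA dehydrogenase gene *Hadh* and the thiolase gene *Acaa2* rose less, by 0.39 (SE 0.11, adjusted p = 0.0153) and 0.39 (SE 0.098, adjusted p = 0.00801) on the log2 scale. *Echs1*, the short-chain enoyl-CoA hydratase, had a log2 fold change of −0.0013 (95% interval −0.26 to 0.26), at 208 to 302 CPM in fed and 211 to 316 CPM in fasted mice.

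The auxiliary enzymes, which move or remove the double bonds of unsaturated fatty acids, rose in 5 of 6 genes, and *Eci3* fell. The mitochondrial enoyl-CoA isomerase *Eci1* had the smallest p of them. *Eci1* was at 109, 88.2 and 133 CPM in *Nts*+/+ fed, 234, 243 and 196 CPM in *Nts*+/+ fasted, 104, 113 and 99.3 CPM in *Nts*-/- fed and 262, 241 and 289 CPM in *Nts*-/- fasted mice. No fed mouse reached the lowest fasted mouse, 322, and the rise was 2.26-fold (log2 fold change 1.18, SE 0.11, adjusted p = 5.29e-06). *Decr1*, the mitochondrial 2,4-dienoyl-CoA reductase, showed 189.6, 143 and 244 CPM in *Nts*+/+ fed, 383, 342 and 322 CPM in *Nts*+/+ fasted, 172, 195 and 186 CPM in *Nts*-/- fed and 447, 416 and 494 CPM in *Nts*-/- fasted mice. Fed and fasted mice were apart (2.11-fold, log2 fold change 1.08, SE 0.12), and so they were for the peroxisomal reductase *Decr2* (1.74-fold, SE 0.15 on the log2 scale) and the dienoyl-CoA isomerase *Ech1* (2.04-fold, SE 0.10).

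The isomerase genes *Eci2* and *Eci3* are neighbours on chromosome 13, with 13937 bases between them, and moved in opposite directions. *Eci2* was at 186, 149 and 217 CPM in *Nts*+/+ fed, 361, 305 and 286 CPM in *Nts*+/+ fasted, 132, 109.9 and 130.2 CPM in *Nts*-/- fed and 349, 364 and 343 CPM in *Nts*-/- fasted mice. All fasted mice were above all fed mice (2.21-fold, log2 fold change 1.15, SE 0.11, adjusted p = 5.65e-06). *Eci3* was at 3.99, 1.66 and 4.79 CPM in *Nts*+/+ fed, 0.759, 0.727 and 0.434 CPM in *Nts*+/+ fasted, 5.05, 19.8 and 1.89 CPM in *Nts*-/- fed and 0.87, 0.823 and 0.992 CPM in *Nts*-/- fasted mice. All fasted mice were below 1 CPM and all fed mice above it, and fed mouse 303 stood far above the next, mouse 277. The fall was 7.35-fold (log2 fold change −2.88, SE 0.57, adjusted p = 0.00354) and the log2 fold change without mouse 303 was −2.20. Its lowest mouse had 16 counts, and 18.3% of its windows of 31 bases occur in other genes, 10.6% in *Eci2*. Their RefSeq promoter windows (GRCm38.p6, minus strand, chr13:34994095-34994394 for *Eci2* and chr13:34963760-34964059 for *Eci3*) are shown because the pair is adjacent and moved apart, with capitals on the stretch closest to the motif described after the roles. The *Eci2* window lies inside the deposited span of the gene (34977748 to 35027094), not at its outer end.
Eci2: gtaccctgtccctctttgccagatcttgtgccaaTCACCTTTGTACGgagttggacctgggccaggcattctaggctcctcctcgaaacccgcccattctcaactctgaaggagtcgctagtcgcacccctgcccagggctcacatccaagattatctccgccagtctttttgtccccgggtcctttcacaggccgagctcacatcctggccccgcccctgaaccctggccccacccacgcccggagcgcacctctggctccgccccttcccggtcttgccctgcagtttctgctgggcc
Eci3: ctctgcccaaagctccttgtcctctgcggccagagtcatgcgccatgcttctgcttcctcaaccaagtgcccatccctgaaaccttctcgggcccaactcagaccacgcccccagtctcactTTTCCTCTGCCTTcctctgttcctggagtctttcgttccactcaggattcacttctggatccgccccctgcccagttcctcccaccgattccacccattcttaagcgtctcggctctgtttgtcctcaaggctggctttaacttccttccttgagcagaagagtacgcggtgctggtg

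**Figure D3:**
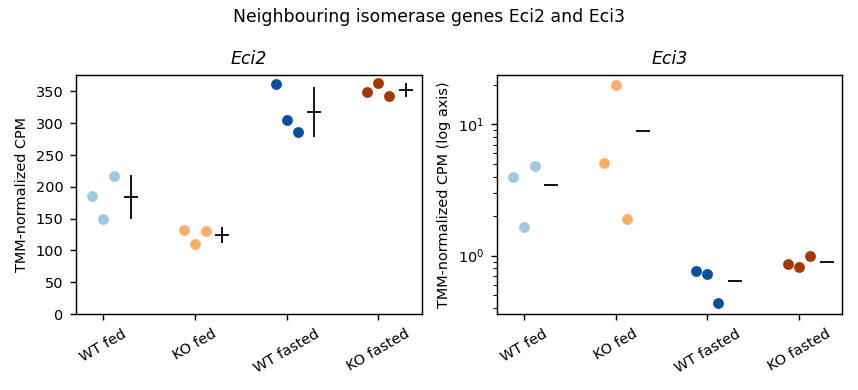
Dots are mice and black marks group means (with SD for *Eci2*, n = 3), in TMM-normalized CPM on a linear axis for *Eci2* and a log axis for *Eci3*. *Eci2* is higher and *Eci3* lower in all fasted mice, and mouse 303 is the high point of *Eci3* at 19.8 CPM.

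Of the 9 genes listed under peroxisomal β-oxidation, 5 were higher and 3 did not pass, and the 1 that was lower, *Pecr*, works in chain elongation. *Ehhadh*, the bifunctional enzyme of hydration and dehydrogenation, rose most of the 35 genes and was number 11 by p among all 13812. In size its averaged log2 fold change, 2.90, was close to that of *Eci3*, −2.88, which was −3.11 without mouse 319, and in livers labelled *Nts*-/- *Eci3* had the larger one. *Ehhadh* was at 441, 467 and 521 CPM in *Nts*+/+ fed, 3135, 3554 and 3493 CPM in *Nts*+/+ fasted, 379.8, 443 and 498 CPM in *Nts*-/- fed and 3171, 5030 and 2178 CPM in *Nts*-/- fasted mice. Every fasted mouse was above every fed mouse, and the *Nts*-/- fasted group was the widest, from mouse 295 at the bottom to mouse 290 at the top. The rise was 7.49-fold (log2 fold change 2.90, SE 0.18, adjusted p = 2.56e-07). Its RefSeq promoter window (GRCm38.p6, chr16:21787785-21788084, minus strand) is shown as that of the gene that rose most, with capitals on the stretch closest to the motif.
Ehhadh: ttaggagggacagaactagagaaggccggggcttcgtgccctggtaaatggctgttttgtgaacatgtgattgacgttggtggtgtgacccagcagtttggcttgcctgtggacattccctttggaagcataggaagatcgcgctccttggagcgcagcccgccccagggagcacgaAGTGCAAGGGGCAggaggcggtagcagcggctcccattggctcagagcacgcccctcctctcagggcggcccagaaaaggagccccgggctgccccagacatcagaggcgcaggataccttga

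*Hsd17b4*, the second peroxisomal bifunctional enzyme, with the opposite stereochemistry, was at 405, 387 and 448 CPM in *Nts*+/+ fed, 898, 801 and 724 CPM in *Nts*+/+ fasted, 369, 364 and 351 CPM in *Nts*-/- fed and 771, 882 and 849.6 CPM in *Nts*-/- fasted mice. It rose 2.12-fold with no overlap (log2 fold change 1.09, SE 0.091, adjusted p = 2.46e-06). The thiolases that close the peroxisomal round are encoded by near copies on chromosome 9, which share 42.7% of the windows of *Acaa1a* and 45.7% of those of *Acaa1b*, so that reads may have been split between them. *Acaa1a* was at 126, 96.3 and 149 CPM in *Nts*+/+ fed, 389, 330 and 288 CPM in *Nts*+/+ fasted, 124, 131 and 143 CPM in *Nts*-/- fed and 409.6, 406 and 467 CPM in *Nts*-/- fasted mice. *Acaa1b* was at 988, 1031 and 1096 CPM, 2032, 1925 and 2247 CPM, 918, 1399 and 1316 CPM and 2467, 2304 and 2039 CPM in the same groups. In both genes all fasted mice were above all fed mice, with rises of 2.96-fold (log2 fold change 1.56, SE 0.12, adjusted p = 1.45e-06) and 1.93-fold (log2 fold change 0.95, SE 0.12, adjusted p = 4.66e-05). Per kb of transcript the level of *Acaa1b* was 9.39 times that of *Acaa1a* in fed mice and 6.08 times in fasted mice. With the counts of both genes summed, a choice made after the data were seen, the log2 fold change was 1.03 (SE 0.11, adjusted p = 1.7e-05).

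*Pecr*, that peroxisomal enoyl-CoA reductase, was at 200.4, 175 and 205 CPM in *Nts*+/+ fed, 189, 110.1 and 105 CPM in *Nts*+/+ fasted, 172, 214 and 211 CPM in *Nts*-/- fed and 132, 130.3 and 197 CPM in *Nts*-/- fasted mice. Fasted mice 265 and 295 lay within the range of the fed mice and the other 4 fasted mice were below it. The fall was 1.37-fold (log2 fold change −0.45, SE 0.16, adjusted p = 0.0414), and the call was lost on leaving out any of 9 of the 12 mice, all but mice 265, 277 and 295, with adjusted p up to 0.109. The racemase gene *Amacr*, which prepares branched chains and bile acid intermediates, passed narrowly (log2 fold change 0.30, SE 0.11, adjusted p = 0.0433) and kept its call in 9 of 18 alternatives. It was lost with upper-quartile normalization and without mouse 254, 257, 265, 282, 277, 303, 284 or 295 (adjusted p up to 0.0946). The branched-chain oxidases *Acox2* and *Acox3* had log2 fold changes of 0.36 and −0.31 (95% intervals 0.05 to 0.66 and −0.60 to −0.021). *Scp2*, whose products include a thiolase for branched chains, was at 2269 to 3356 CPM in fed and 2338 to 3363 CPM in fasted mice (log2 fold change 0.11, 95% interval −0.15 to 0.37), with 1186 of its 2637 windows also in *Gm67972*.

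The 2 genes of α-oxidation moved in opposite directions. *Phyh*, which hydroxylates phytanoyl-CoA, was at 1194, 1071 and 1495 CPM in *Nts*+/+ fed, 1717, 1519 and 1447 CPM in *Nts*+/+ fasted, 1158, 1228 and 1203 CPM in *Nts*-/- fed and 1795, 1572 and 1942 CPM in *Nts*-/- fasted mice. Only fed mouse 323 reached into the fasted range, and the rise was 1.36-fold (log2 fold change 0.44, SE 0.11, adjusted p = 0.00629). *Hacl1*, the lyase of the following step, was at 818, 811 and 1097 CPM in *Nts*+/+ fed, 662, 639.9 and 596 CPM in *Nts*+/+ fasted, 971, 958 and 599 CPM in *Nts*-/- fed and 603, 641 and 452 CPM in *Nts*-/- fasted mice. Fed mouse 319 lay among the fasted mice and the other 5 fed mice were above all of them. The fall was 1.46-fold (log2 fold change −0.55, SE 0.14, adjusted p = 0.00896), with 50.9% of its windows also in *Gm49387*.

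Of the electron transfer flavoprotein genes, *Etfb* and *Etfdh* rose and *Etfa* did not pass. *Etfdh* encodes the oxidoreductase that hands the electrons to ubiquinone, and was at 292, 261 and 343 CPM in *Nts*+/+ fed, 723, 633 and 538 CPM in *Nts*+/+ fasted, 304, 299 and 265 CPM in *Nts*-/- fed and 572, 652 and 713 CPM in *Nts*-/- fasted mice. Fed and fasted mice were apart, and the rise was 2.17-fold (log2 fold change 1.12, SE 0.11, adjusted p = 7.27e-06). The subunit genes had smaller changes, of 0.52 (SE 0.11, adjusted p = 0.00238) for *Etfb* and 0.27 (SE 0.11, adjusted p = 0.0788) for *Etfa* on the log2 scale, and 68.0% of the windows of *Etfb* also occur in *Etfbl*.

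**Figure D4:**
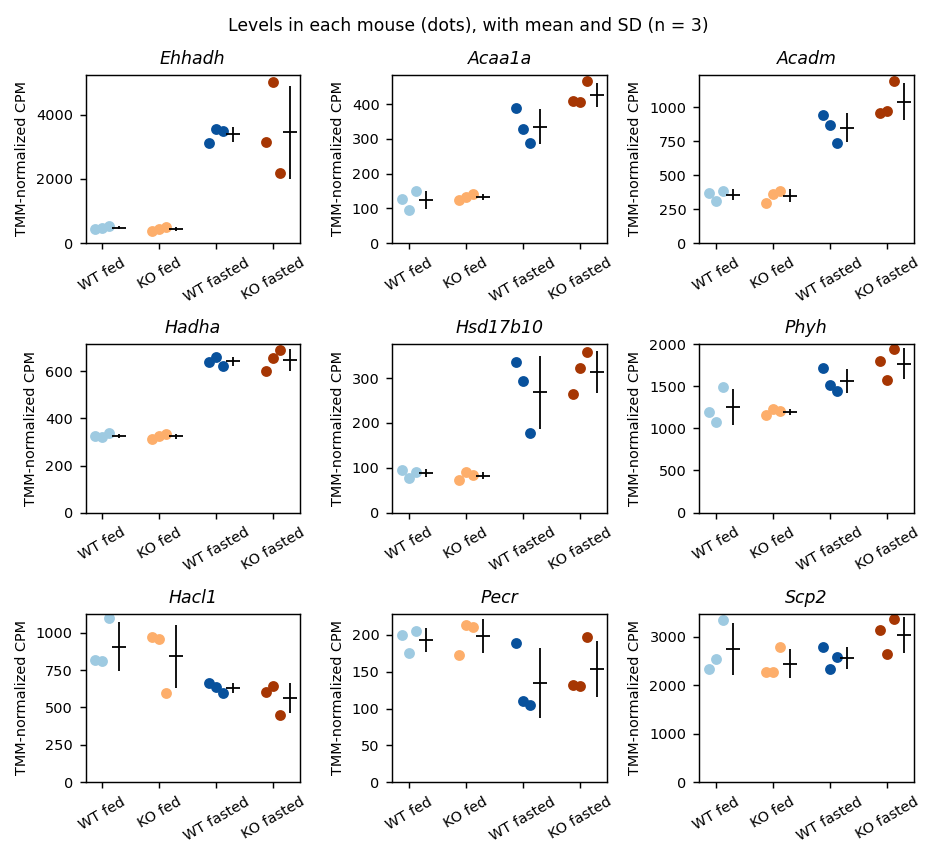
Dots are mice in the 4 groups and the black mark beside each group is its mean with SD (n = 3), in TMM-normalized CPM. The 5 genes *Ehhadh*, *Acaa1a*, *Acadm*, *Hadha* and *Hsd17b10* have no overlap between fed and fasted mice, while *Phyh*, *Hacl1*, *Pecr* and *Scp2* overlap.

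Levels were compared between genes per kb of transcript. Over all 12 mice *Scp2* was highest, at 1013 CPM per kb, followed by *Acaa1b* at 975, *Phyh* at 902, *Ehhadh* at 650 and *Acaa2* at 543 CPM per kb. At the other end were *Acox3* at 5.32 and *Eci3* at 1.76 CPM per kb. The order changed with feeding. *Ehhadh* moved from rank 13 of 35 in fed mice (153 CPM per kb) to rank 2 in fasted mice (1147 CPM per kb), and *Acaa1b* from rank 3 to rank 1. *Hsd17b10* moved from rank 24 to rank 11 and *Acaa1a* from rank 28 to rank 18, whereas *Hacl1* dropped from rank 7 to rank 20 and *Pecr* from rank 17 to rank 30. These ranks describe group means and were not tested.

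Genes around the pathway, from lists of carnitine supply, acyl-CoA handling and regulation, were counted beside it. Of 34 such genes, 33 were tested, all but *Cpt1c*. On fasting 17 rose and 6 fell, beside 16% and 16.8% of all tested genes, so the falls were near that share. The same shares of all genes stand beside the counts of each list below. The median log2 fold change was 0.41, against −0.0071 over all genes. In carnitine supply and transport, 4 of 6 rose and 1 fell, and the smallest p belonged to the carnitine-acylcarnitine carrier *Slc25a20* (log2 fold change 1.13, SE 0.10) and the carnitine transporter *Slc22a5* (2.10, SE 0.21). The largest rise of that list was in *Cpt1b*, the carnitine palmitoyltransferase known from muscle, which is named after its values were seen, at 0.0362 to 2.07 CPM in fed and 7.49 to 18.6 CPM in fasted mice (10.1-fold, with 1 count in its lowest mouse, adjusted p = 6.72e-04). In activation and peroxisomal import, 5 of 9 rose and 1 fell, with the smallest p for the fatty aldehyde dehydrogenase *Aldh3a2* (1.19, SE 0.10) and the very-long-chain acyl-CoA synthetase *Slc27a2* (1.31, SE 0.13). In acyl-CoA hydrolysis, 5 of 7 rose and 1 fell, with the thioesterases *Acot8* at 1.21 (SE 0.092) and *Acot2* at 2.76 (SE 0.21). Of regulators, 3 of 4 rose and 0 fell, with *Ppara* at 0.75 (SE 0.15) and the nuclear receptor gene *Esrra* at 0.53 (SE 0.15). Of 5 further acyl-CoA dehydrogenases, 0 rose and 2 fell, *Acadsb* at −0.46 (SE 0.094) and *Acad9* at −0.43 (SE 0.13). Of the malonyl-CoA genes, *Acacb*, whose product makes the inhibitor of carnitine transfer, fell (−1.17, SE 0.33, adjusted p = 0.0211), and *Mlycd*, whose product removes it, did not pass (0.31, SE 0.12, adjusted p = 0.0715). *Acacb* did not pass within *Nts*+/+ or *Nts*-/- alone (adjusted p = 0.254 and 0.05145 in edgeR's test). Fed mouse 319, at 46.45 CPM, lay within its fasted range of 37.4 to 68.1 CPM.

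Between genotype labels in fasted livers, 0 of the 35 genes passed the Wald test of DESeq2, beside 4 of all 13812 genes. In edgeR's test 0 of the 35 passed, as was so for 0% of all genes. At an unadjusted p under 0.05 there was 1 gene, *Decr1*, beside 4.96% of all genes. The log2 fold change of livers labelled *Nts*-/- against *Nts*+/+ was above 0 in 31 of 35 genes, with a median of 0.16 against −0.0087 over all genes. The genes are read from the same 6 livers, so they are not independent of each other. In 6 genes (*Crot*, *Acadm*, *Decr1*, *Eci3*, *Acaa1a* and *Amacr*) the fasted groups did not overlap, all higher in *Nts*-/-, beside 5.29% of all genes, and 0 genes were apart in the other direction, beside 6.88%. Among the 26 genes that share less than 10% of their windows with other genes, 3 were apart. *Eci3* was at only 0.434 to 0.992 CPM in the fasted mice. *Decr1* had the smallest p, with a log2 fold change of 0.37 (SE 0.17, unadjusted p = 0.045 and adjusted p = 0.917 in edgeR's test), from the values given with its role. *Acaa1a* followed at 0.35 (95% interval −0.00088 to 0.70; 0.17 with the counts of *Acaa1b* added) and *Crot* at 0.40 (95% interval −0.0017 to 0.80). For *Ehhadh* the difference was 0.028 (95% interval −0.47 to 0.53) and for *Hadha* 0.018 (95% interval −0.23 to 0.26). The intervals excluded a change of 2-fold or more for 34 of the 35, all but *Eci3*, and a change of 1.5-fold or more for 23.

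Mouse 322 bore on this comparison. It was the lowest of the 6 fasted mice in 21 of the 35 genes, and mouse 295 was the highest in 21. Without mouse 322 the median was 0.080, and without mouse 265 it was 0.21. The count of genes that passed was 0 with any mouse left out.

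In fed livers, 0 of the 35 genes passed the Wald test of DESeq2 between labels, beside 12 of all 13812 genes. In edgeR's test 0 of the 35 passed, beside 0% of all genes. The log2 fold change was above 0 in 11 of 35 genes, with a median of −0.046 against 0.010 over all genes. Without mouse 323, the highest of the fed mice in 22 genes, the median was 0.069, and without mouse 257, the lowest in 15, it was −0.13. In 4 genes (*Acads*, *Acadvl*, *Eci2* and *Hsd17b4*) all fed mice labelled *Nts*-/- were below all labelled *Nts*+/+, beside 5.85% of all genes, and in 0 genes above, beside 4.81%. The Kupffer cell markers were also apart in these livers, at 388 to 445 CPM under *Nts*+/+ and 244 to 343 CPM under *Nts*-/-, and their part in the result was not tested. The 1 gene at an unadjusted p under 0.05, beside 6.34% of all genes, was *Eci2*, with a log2 fold change of −0.57 (SE 0.15, unadjusted p = 0.00217, adjusted p = 0.715). Next by p were *Acadvl*, at −0.26 (95% interval −0.54 to 0.029), and *Eci3*, at 1.36 (95% interval −0.20 to 2.92) and 0.010 without mouse 303. The intervals excluded a change of 2-fold or more for 34 genes, all but *Eci3*.

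The difference of the fasting responses, *Nts*-/- minus *Nts*+/+, also passed in 0 of 35 genes with DESeq2, beside 3 of all 13812 genes. With edgeR it passed in 0 of 35 genes and 0% of all genes. An unadjusted p under 0.05 was reached by 2 genes, beside 4.8% of all genes. These were *Eci2*, which rose 1.73-fold under one label and 2.84-fold under the other (difference 0.72 on the log2 scale, SE 0.21, unadjusted p = 0.00468, adjusted p = 0.897), and *Acadvl* (difference 0.41, SE 0.19, unadjusted p = 0.049, adjusted p = 0.897). *Crot* was next, at 0.52 (95% interval −0.047 to 1.09), with a log2 fold change of −0.13 in livers labelled *Nts*+/+ and 0.39 in those labelled *Nts*-/-. Without mouse 323 the difference was 0.29 and the log2 fold change under *Nts*+/+ was 0.11, and without mouse 257 they were 0.69 and −0.29. The median difference was 0.15 over the 35 genes and −0.020 over all genes, and it ran from 0.095 without mouse 322 to 0.29 without mouse 257. For *Ehhadh* the interval of the difference was −0.57 to 0.85, and 32 of the 35 intervals excluded a 2-fold difference.

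**Figure D5:**
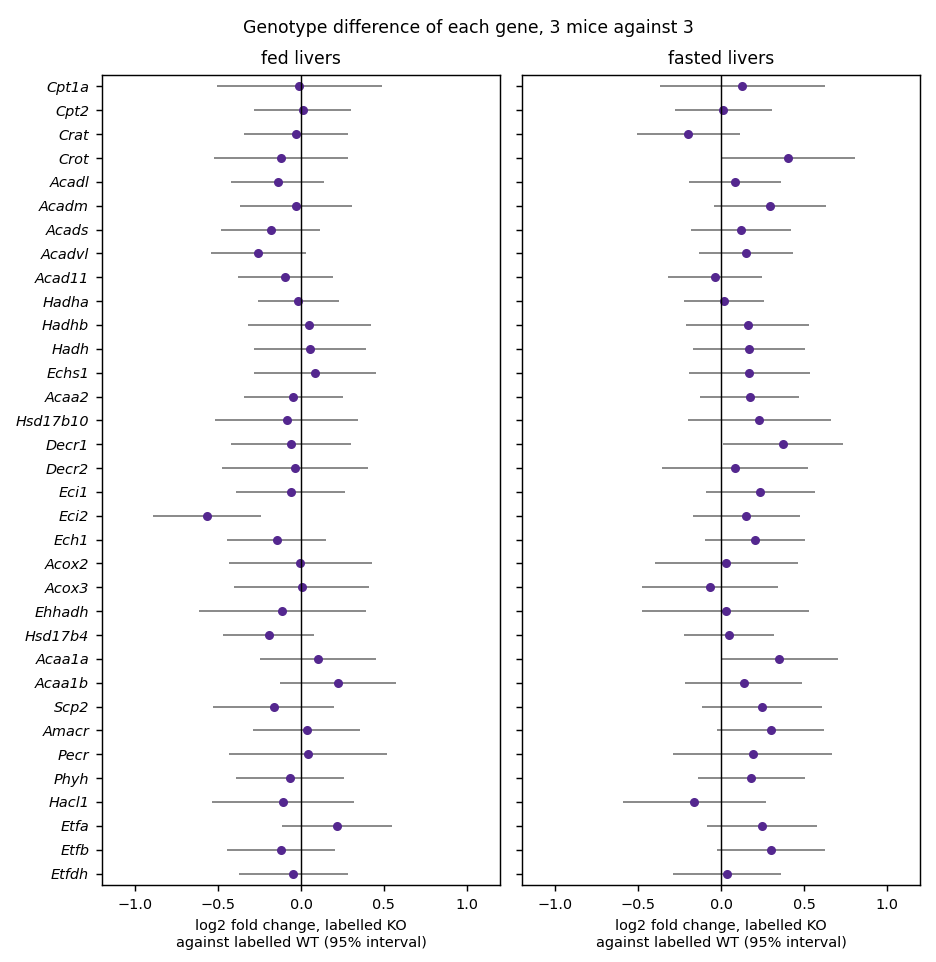
Points are log2 fold changes of livers labelled *Nts*-/- against *Nts*+/+ and lines their unadjusted 95% intervals, for fed livers on the left and fasted livers on the right, 3 mice against 3, without *Eci3*, whose intervals run off the axis. Most points in fasted livers lie right of 0, and the lines of *Eci2* in fed and of *Decr1* in fasted livers do not reach 0.

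Mice of a group also differed in where they stood over the whole set. After centring each gene over the 12 mice, the median of the 35 genes on the log2 scale was −0.52 to −0.23 in *Nts*+/+ fed, −0.49 to −0.31 in *Nts*-/- fed, 0.26 to 0.45 in *Nts*+/+ fasted and 0.40 to 0.53 in *Nts*-/- fasted mice, while the median of all genes stayed within 0.013 of 0 in every mouse. Mouse 295 was the highest of all 12 mice in 18 genes, mouse 257 the lowest in 14 and mouse 277 the lowest in 11. *Ehhadh* did not follow this order, since mouse 295 was the lowest fasted mouse for it.

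The motif searched in the promoter windows was AGGTCANAGGTCA, a repeat of the half-site AGGTCA with a spacing of 1 base, to which PPARα is known to bind with its partner. It was searched on both strands with up to 2 mismatches, and windows were found in RefSeq for 30 of the 35 genes (31 windows of 300 bases). A match was present in 3 genes, *Acox2*, *Echs1* and *Etfa*, or 9.68% of their windows, against 3.86% of 32851 windows of all genes. None of these 3 genes passed for averaged fasting. In 18 alternatives of processing or mice left out, *Etfa* passed in 5, *Acox2* in 3 and *Echs1* in 0. The match is shown for each, as read 5′ to 3′ along its gene, because it is present in genes that did not pass, with the match on the gene's other strand for *Etfa*.
Acox2: AGGACAGAGGTGA
Echs1: AGGTCACGGGTCC
Etfa: TTACCTTTGCCCT
The half-site on its own was in 19.4% of the windows and in 16.3% of all. The stretches in capitals in the windows of *Ehhadh*, *Eci2* and *Eci3* above each have 4 mismatches to the motif, in *Ehhadh* starting 73 bases before the start. Absence from a window says only that these letters are not in these 300 bases.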

How the data were processed

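Liver RNA of 12 mice was sequenced. The authors deposited 1 table of expected counts (estimated reads per gene, not scaled between mice) with GRCm38 positions, and per the labels Trimmomatic and RSEM were used, with versions and settings not given in the sources used here. Whether counting used strand is not given either, so reads of overlapping genes cannot be told apart. Columns of other samples numbered 0. After rounding of the expected counts, filterByExpr of edgeR 4.0.16 (R 4.3.3) left 13812 genes, to which TMM factors were applied. The model fitted a mean per group over all 12 mice with robust quasi-likelihood tests. All 13812 genes entered the Benjamini-Hochberg adjustment, and an adjusted p under 0.05 was a call. Standard errors were taken from the log2 fold change and its F statistic, and 95% intervals from these. CPM is the count scaled to the library's TMM-adjusted total.

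Lengths are those of Ensembl canonical transcripts (GENCODE vM39), found through the Ensembl identifier for 99.2% of genes and all 35 members, and windows of 31 bases shared with transcripts of other genes came from the same annotation. The deposited counts need not hold the same genes as that annotation. A shared window therefore does not show that reads were divided with the other gene. Promoter windows and their coordinates are from RefSeq (GRCm38.p6), whose gene positions overlapped the deposited ones for all 35.

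The 35 genes, the lists, the roles and the rule for naming genes were chosen with earlier results of these data known. Values of each mouse are given for the 8 genes of smallest p for fasting, the smallest of each role, the 3 of smallest p in each genotype comparison and in the difference of responses, genes that fell and the pairs *Acaa1a* and *Acaa1b*, and *Eci2* and *Eci3*. Other pathway genes are named as the 2 of smallest p in each list. Of those lists, 1 gene is not reported here and was left out of their counts. Tried in turn were the Wald test of DESeq2 1.42.0, RLE and upper-quartile factors, dropping the filter or asking for 10 counts in each mouse, a removed trend with gene length, only the mice compared, adjusted p under 0.10, a log2 fold change of at least 1 and leaving out each mouse. Leaving out near copies and summing the *Acaa1* genes were added after the data were seen.

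On simulated data with these depths over 13812 genes, the fasting comparison of 6 against 6 mice recovered 94 of 100 genes changed 4-fold and 75 of 100 changed 2-fold, with 4 calls among 13612 unchanged genes. The fasted genotype comparison recovered 82 and 65, with 6 such calls. In the data, 4524 genes passed for averaged fasting and 0 between labels in fasted livers. The simulated share of changed genes thus differs from the data, and recovery may differ too. Changes smaller than 2-fold were not simulated. A floor of 3 counts lay between 0.0663 and 0.136 CPM before TMM scaling and covers counting error only.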

Additional observations from a re-analysis of the deposited data

Results flagged for a closer look

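*Nts* itself, which enters no comparison of the enzymes, was read in all 6 livers labelled *Nts*-/- (22.5 counts on average) and in none labelled *Nts*+/+ (0 counts). The direction of each genotype difference given for the fatty acid oxidation genes rests on those labels.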

How the results depend on the processing

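With a log2 fold change of at least 1 also required, 9 of the 35 genes passed for fasting in livers labelled *Nts*+/+. For fasting averaged over the genotypes 15 passed, since a larger change was asked for. The share of all genes under that rule was not counted, so neither count can be set against a background. All other counts of genes stayed within 1.5 times. No gene called on fasting changed direction in an alternative. Of those that did not pass, *Crot* and *Scp2* under *Nts*+/+ and *Echs1* did, and the median of the genotype difference in fed livers changed sign, to 0.069, without mouse 323. Leaving out each mouse gave 18 to 22 genes for fasting in livers labelled *Nts*+/+, 21 to 25 in those labelled *Nts*-/-, 26 to 29 for the average, and 0 for the genotype comparisons and the difference of responses. Without the 9 genes that share at least 10% of their windows with another gene, 20 of 26 passed for averaged fasting. Of the 26, 19 rose and 1 fell, beside 16% and 16.8% of all genes, and their median log2 fold change was 0.86. Of the 28 genes that passed, 26 did so in all 18 alternatives of normalization, filter, tool, length trend or mouse left out, and *Amacr* and *Pecr* did not. In all 19 alternatives, 18 of the 20 calls within *Nts*+/+ (not *Acadvl* and *Decr2*) and 21 of the 24 within *Nts*-/- (not *Acaa2*, *Eci3* and *Phyh*) were kept. No paired analysis was possible because the labels do not say which mice shared a litter and mouse numbers are not shared between groups, so litter is in no fit. Groups of 3 mice limit the genotype comparisons: the median half-width of their 95% intervals was 0.34 on the log2 scale.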
